A study of Mus musculus with 36 samples.

Results

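The comparison described here asked how the effect of medium from mutant astrocytes on motor neurons changed between day 1 and day 3 of exposure. For each gene the difference between mutant and non-transgenic medium on day 1 was subtracted from the same difference on day 3, and the result is called the interaction, in log2 units. It used 24 of the 36 libraries of the series, 6 in each of 4 groups. All libraries came from motor neurons differentiated from embryonic stem cells of transgenic Hlxb9-GFP1Tmj mice, in which the promoter of HB9 (Mnx1) drives eGFP or eGFP and CD2, and the cells were sorted by an antibody against CD2. They were exposed for 1 or 3 days to astrocyte-conditioned medium, the astrocytes coming from newborn pups. In the NTg groups the astrocytes were non-transgenic, and in the mSOD1 groups they over-expressed SOD1 with the G93A change, an allele of familial amyotrophic lateral sclerosis. Every medium was supplemented with D-glucose, penicillin/streptomycin, GDNF (0.5 ng/ml), BDNF (1 ng/ml) and CNTF (10 ng/ml). The labels describe the astrocyte cultures as 95% GFAP-positive, with remaining microglia shaken off, from spinal cord or cortex. Which source served each library, and whether the 6 experiment numbers stand for separate astrocyte preparations or separate neuron differentiations, is not stated in the labels, so p-values measure only the spread between these libraries. The 12 other libraries, from medium of astrocytes over-expressing wild-type SOD1 (wtSOD1), entered none of the calls of the main fit. Below they give side-by-side values, contrasts of some genes against wtSOD1 medium, and the line on which whole libraries are placed. They also enter an alternative fit of all 36 libraries.

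As background, cells that meet type I interferon or foreign RNA switch on a common set of antiviral genes. The receptors signal through a complex that contains IRF9 and binds a short DNA element, the interferon-stimulated response element (ISRE). Among the targets are RNA sensors such as RIG-I (gene Ddx58) and MDA5 (Ifih1), further transcription factors such as IRF7, and the protease USP18, which restrains the receptor. Receptors of the interleukin 6 family, among them OSMR and LIFR, signal through gp130 and STAT3, and CNTF, present in every medium here, acts through LIFR.

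Reads assigned to genes ranged from 4.39 to 42.2 M per library, and 15025 genes passed the filter on low counts. Levels are given as counts per M reads (CPM), after each library size was multiplied by its TMM scaling factor (0.944 to 1.041). They are not divided by gene length, so they are compared between libraries and not between genes. The motor neuron genes Mnx1, Isl1 and Chat had reads in every library, with medians of 116, 163 and 226 CPM in NTg medium on day 1. On day 3 these medians were 33.1, 60.3 and 80.6 CPM. The summed level of 13 astrocyte markers had medians of 317 CPM on day 1 and 735 CPM on day 3 in NTg medium. In mSOD1 medium the medians were 316 and 691 CPM. Of 11 such markers tested, 7 rose and 1 fell in NTg medium, beside 30.5% and 31.4% of all genes. The median of Aldh1l1 went from 12.6 to 127 CPM there and that of Slc1a3 from 52.9 to 193 CPM. That of Slc1a2 went from 64.4 to 35.8 CPM. Gfap and S100b stayed low, with medians of 0.49 and 0.37 CPM on day 3, so the sum does not stand for every marker. The smallest library, replicate 6 of the NTg group on day 1, stood apart from the other 5 of its group. The summed level of 17 microglia and macrophage markers was 94.4 CPM there and 16.7 to 19.8 CPM in the others, and that of 13 oligodendrocyte markers was 288.5 against 91.8 to 94.7 CPM. C1qa, a complement gene of microglia, had 6.59 CPM in it and no read in the other 5, while Aif1, at 0.47 CPM, lay within their range of 0 to 0.57 CPM. The part of these markers in the results was not tested, and the counts of called genes are given with and without this library. In bulk RNA of this kind, fewer cells of a type and less RNA per cell cannot be told apart.

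The effect of mSOD1 medium changed between the days for 28 of 15025 genes (0.186%). The interaction was positive for 12 (0.0799%) and negative for 16 (0.106%), by edgeR's quasi-likelihood test with a Benjamini-Hochberg adjusted p below 0.05, and 2164 genes had an unadjusted p below 0.05. The 28 genes fell into 2 main patterns of 13 genes each. In 13 genes the difference passed on day 1 and was smaller on day 3, where 1 of them still passed, and in all 13 mSOD1 medium gave the higher level on day 1. In another 13 it did not pass on day 1 and passed on day 3, higher in mSOD1 medium for 12 and lower for 1. The remaining 2 genes, Pgpep1 and Mcam, passed for the interaction while neither day passed alone, and no gene reversed, with opposite effects called on both days. For comparison, 57 genes (0.379%) were higher and 1 (0.00666%) lower in mSOD1 medium on day 1, and 321 (2.14%) were higher and 86 (0.572%) lower on day 3. The patterns sort genes by these same contrasts and carry no test of their own.

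**Figure D1:**
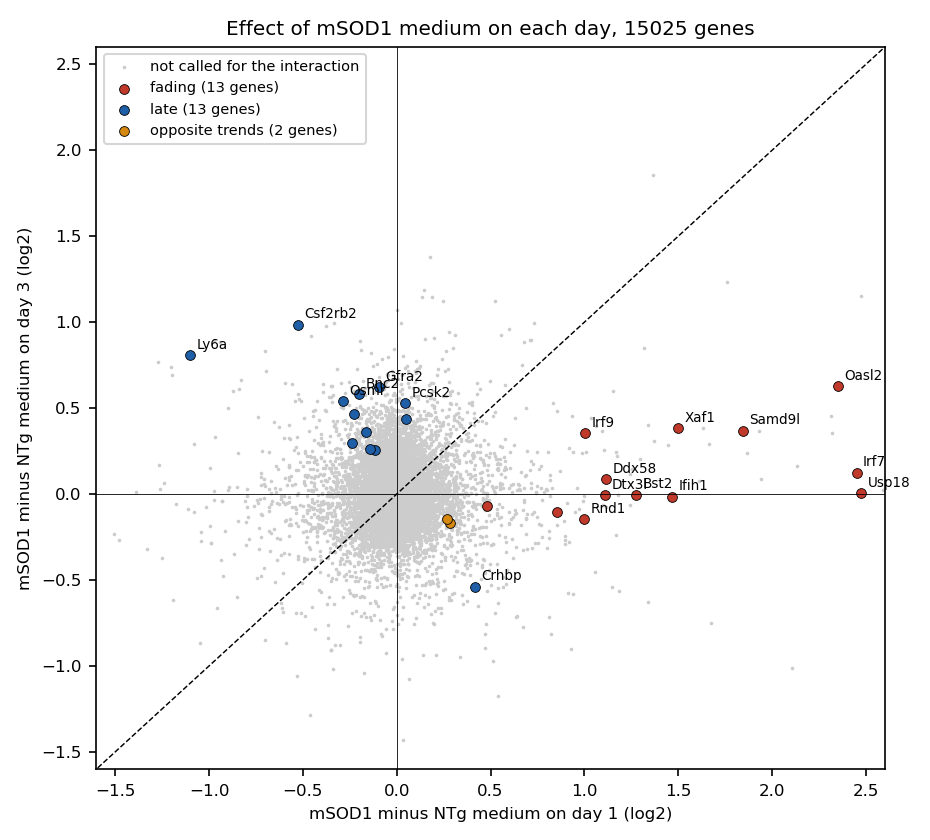
Each point is a gene, with the log2 difference between mSOD1 and NTg medium on day 1 (horizontal axis) and on day 3 (vertical axis), and equal effects lie on the dashed line. The 13 fading genes (red) lie to the right and below the dashed line, some with a day 3 difference still above 0. The 13 late genes (blue) have day 1 differences that did not pass, most near 0 or below and that of Crhbp at 0.42. The 2 genes with opposite trends are orange, and 18 genes, none of them called, lie outside the axes.

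The count of genes moved with the fit. Without replicate 6 of the NTg group on day 1, 51 of 15092 genes were called (0.338%), 16 positive (0.106%) and 35 negative (0.232%). All 28 genes were among them with the same pattern, and their interactions moved by at most 0.44 (Irf7). Of the 28, the interactions of Irf7, Usp18 and Oasl2 moved by more than 0.2. Of fits that each left out 1 of the 24 libraries, 14 of the 28 genes passed in 12 or fewer, and 11 passed in every one. The labels number the experiments 1 to 6 in every group, which was read as a shared experiment. With the experiment as a replicate block within each day, 1458 genes were called (9.7%), 1006 positive (6.7%) and 452 negative (3.01%), again with all 28 among them. With 1 block across both days, 364 genes were called (2.42%), 274 positive (1.82%) and 90 negative (0.599%).

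Fading genes were mostly interferon genes, and they did not fade in the same way. Beside them, 30.5% of all tested genes rose and 31.4% fell from day 1 to day 3 in NTg medium, and 28.6% rose and 28.2% fell in mSOD1 medium. In 7 of the 13 the NTg level rose towards the mSOD1 level, which also rose but by less, and this is called catching up here: Ddx58, Ifih1, Bst2, Samd9l, Irf1, Xaf1 and Dtx3l. In 4 the mSOD1 level fell and the NTg level did not pass a test of change: Usp18, Irf9, Irf7 and Oasl2. In Rnd1 and Nfkb2 the NTg level rose and the mSOD1 level fell.

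Promoters that held an ISRE are shown first, beside that of Irf7, which held none. Windows from 250 bases before to 50 after the start of transcription (RefSeq, GRCm38.p6) existed for 23 of the 28 genes. They were searched on both strands for TTTC, any 2 bases and TTTC again, a core of the ISRE, and neighbouring matches may share bases. Of the 11 fading genes with a window, 3 (27.3%) held a match, namely Bst2, Ddx58 and Ifih1, against none of 10 late genes and 3.59% of the 11608 tested genes with a window. All 3 belong to the 7 genes at which the control caught up. Only 3 of the genes whose mSOD1 level fell had a window, and none of these held a match. The numbers are too small to compare the kinds of fading. Among the genes called without replicate 6 of NTg on day 1, 9 of 17 with a control that caught up held a match (52.9%), and 1 of 7 whose mSOD1 level fell. A match is a description of the letters and not a site of binding. Other forms of the element, and bases outside the window, were not searched. Below, the matches are in capitals, all 6 genes lie on the minus strand, and the sequences read 5′ to 3′ on that strand. The stretches of 150 bases end just before the start of transcription, those of Ddx58 and Ifih1 are 30 bases around a match that lies after it, and Irf7 is a gene whose mSOD1 level fell and whose window held no match. They lie at chr8:71537473-71537622 (Bst2), chr4:156200819-156200968 (Isg15), chr11:48871421-48871570 (Irgm1), chr7:141266425-141266574 (Irf7), chr4:40239804-40239833 (Ddx58) and chr2:62646206-62646235 (Ifih1). Isg15 and Irgm1 did not pass with all libraries and no block, and passed without replicate 6 of NTg on day 1.
Bst2: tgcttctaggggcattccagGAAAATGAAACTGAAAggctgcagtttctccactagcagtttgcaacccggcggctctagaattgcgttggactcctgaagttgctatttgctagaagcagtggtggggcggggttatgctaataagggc
Isg15: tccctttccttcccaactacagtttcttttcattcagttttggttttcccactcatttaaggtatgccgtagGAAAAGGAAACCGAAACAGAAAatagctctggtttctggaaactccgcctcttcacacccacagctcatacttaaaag
Irgm1: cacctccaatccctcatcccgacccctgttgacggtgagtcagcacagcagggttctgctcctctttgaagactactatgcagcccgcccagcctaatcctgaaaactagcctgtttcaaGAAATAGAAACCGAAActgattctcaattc
Irf7: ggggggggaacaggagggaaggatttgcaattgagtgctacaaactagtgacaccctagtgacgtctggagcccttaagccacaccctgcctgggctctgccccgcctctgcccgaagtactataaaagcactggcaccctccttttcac
Ddx58: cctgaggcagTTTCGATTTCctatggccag
Ifih1: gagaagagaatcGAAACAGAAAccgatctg
The matches of Bst2, Isg15 and Irgm1 overlap in runs of 2, 3 and 2. Those of Bst2 begin 130 and 124 bases before the start of transcription, and those of Irgm1 30 and 24 bases before it.

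Both RNA sensors among the 28 were in this group. Ddx58 (gene 230073), which encodes the sensor RIG-I, had 6.04, 6.91 and 9.65 CPM (lowest, median and highest of 6) in NTg medium on day 1 and 14.2, 16 and 17.7 CPM in mSOD1 medium. On day 3 it had 22.3, 26.4 and 27.9 CPM in NTg and 23.1, 27.7 and 29.2 CPM in mSOD1 medium. The groups were apart on day 1 and overlapped on day 3, with both at a level above that of mSOD1 medium on day 1. The difference went from 1.11 ± 0.10 (log2 ± SE, adjusted p = 3.47e-08) to 0.09 ± 0.08 (adjusted p = 0.609), an interaction of -1.03 ± 0.13 (edgeR adjusted p = 7e-05), negative in 6 of 6 experiments. Ifih1 (71586), which encodes the sensor MDA5, had 0.40, 1.88 and 2.59 CPM in NTg and 2.67, 4.75 and 5.91 CPM in mSOD1 medium on day 1. On day 3 the values were 8.08, 9.43 and 10.8 CPM in NTg and 7.53, 9.45 and 10.9 CPM in mSOD1 medium. Its groups also did not overlap on day 1 and overlapped fully on day 3 (interaction -1.48 ± 0.28, adjusted p = 0.0175). Without replicate 6 of NTg on day 1 the interactions of Ddx58 and Ifih1 were -1.07 (adjusted p = 1.31e-05) and -1.55 (adjusted p = 0.00654). On the authors' transformed values the calls of Ifih1, Bst2, Samd9l, Xaf1 and Dtx3l were lost, and those of Ddx58 and Irf1 were not.

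Antiviral effectors differed in how close the media were on day 3. Bst2 (69550), which encodes tetherin, a protein that holds budding virus at the membrane, had 1.34, 1.92 and 3.53 CPM in NTg and 3.58, 4.69 and 5.48 CPM in mSOD1 medium on day 1. On day 3 it had 5.35, 6.14 and 6.73 CPM in NTg and 4.32, 5.95 and 7.57 CPM in mSOD1 medium. The highest NTg value of day 1 was replicate 6, just under the lowest mSOD1 value. NTg rose by 1.65 ± 0.17 and mSOD1 by 0.37 ± 0.16, for an interaction of -1.28 ± 0.23 (adjusted p = 0.0126), and -1.38 (adjusted p = 0.00134) without replicate 6. Samd9l (209086), an antiviral gene, had an interaction of -1.48 ± 0.27 (adjusted p = 0.0133). Its replicate 6 of NTg on day 1, at 3.29 CPM, lay inside the mSOD1 range of 2.51 to 6.36 CPM, and the other 5 lay at 0.89 to 1.68 CPM. Its day 3 values were 5.16, 5.94 and 6.24 CPM in NTg and 6.11, 7.48 and 8.85 CPM in mSOD1 medium, and it was still higher in mSOD1 medium in 5 of 6 experiments (difference 0.37 ± 0.17, adjusted p = 0.212). Xaf1 (327959), an interferon-induced gene linked to cell death, had an interaction of -1.12 ± 0.22 (adjusted p = 0.0215). Its difference was 1.5 ± 0.17 on day 1, and 0.38 ± 0.13 (adjusted p = 0.108) on day 3, still higher in mSOD1 medium in 6 of 6 experiments. Its day 3 values were 6.34, 7.31 and 8.99 CPM in NTg and 7.27, 9.97 and 10.8 CPM in mSOD1 medium. Dtx3l (209200), a ubiquitin ligase, had an interaction of -1.11 ± 0.23 (adjusted p = 0.0295), but it overlaps Parp9 on the chromosome and reads of the pair may have been shared. Irf1 (16362), a transcription factor induced by interferon, rose in NTg medium from a median of 13.5 to 31.1 CPM and in mSOD1 medium from 22.7 to 28.2 CPM (interaction -0.96 ± 0.18, adjusted p = 0.0215).

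Usp18, Irf9, Irf7 and Oasl2 returned towards the control level in mSOD1 medium. Usp18 (24110), the protease that restrains interferon signalling, had 1.49, 2.5 and 10.1 CPM in NTg and 11.6, 17.4 and 20.6 CPM in mSOD1 medium on day 1. On day 3 it had 2.58, 3.38 and 4.05 CPM in NTg and 2.89, 3.22 and 4.01 CPM in mSOD1 medium. The high NTg value was replicate 6, and the other 5 lay at 3.3 CPM or below. In mSOD1 medium Usp18 fell by 2.35 on the log2 scale (SE 0.23), and in NTg medium the change was 0.12 ± 0.26 (adjusted p = 0.72). The interaction was -2.47 ± 0.35 (adjusted p = 0.000809) and -2.77 ± 0.24 (adjusted p = 5e-08) without replicate 6 of NTg on day 1, where a rise of the NTg level also passed. Irf7 (54123), the transcription factor that amplifies interferon production, had 0.31, 0.64 and 3.53 CPM in NTg and 2.44, 4.2 and 5.74 CPM in mSOD1 medium on day 1. On day 3 both were low again, at 0.40, 0.78 and 1.03 CPM in NTg and 0.53, 0.88 and 1.05 CPM in mSOD1 medium. The interaction was -2.32 ± 0.49 (adjusted p = 0.0358). The NTg value of 3.53 CPM was again replicate 6, and the others lay between 0.31 and 0.68 CPM.

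Irf9 (16391), the DNA-binding part of the interferon receptor's complex, was the only gene among the 28 whose difference shrank and still passed on day 3. It had 17.8, 20.5 and 24 CPM in NTg and 36.6, 39.9 and 47.9 CPM in mSOD1 medium on day 1, and 16.5, 19.1 and 20.7 CPM against 21.8, 23.8 and 28.7 CPM on day 3. The groups did not overlap on either day. The difference went from 1.00 ± 0.08 (adjusted p = 2.39e-09) to 0.36 ± 0.08 (adjusted p = 0.0141), an interaction of -0.65 ± 0.11 (adjusted p = 0.00603). Oasl2 (23962), an antiviral protein related to the 2′-5′ oligoadenylate synthetases, fell by 1.69 ± 0.24 in mSOD1 medium. On day 3 it had 3.52 to 5.17 CPM in NTg and 4.03 to 9.99 CPM in mSOD1 medium. Its interaction of -1.73 ± 0.37 passed narrowly (adjusted p = 0.0445), and it passed in 5 of the 24 fits that left out a library.

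Rnd1 and Nfkb2 moved in both media. Rnd1 (223881), a small GTPase that loosens the actin skeleton, had 5.95, 7.58 and 12 CPM in NTg and 11.7, 14.5 and 23.3 CPM in mSOD1 medium on day 1, and 10.8, 12.4 and 15.3 CPM against 9.24, 11.6 and 12.6 CPM on day 3. The day 1 groups overlapped only through replicate 6 of NTg at 12 CPM. The interaction was -1.14 ± 0.20 (adjusted p = 0.00901). Nfkb2 (18034), a subunit of the NF-kappaB factors, had a smaller interaction of -0.55 ± 0.11 (adjusted p = 0.0351), and it overlaps Psd on the chromosome.

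**Figure D2:**
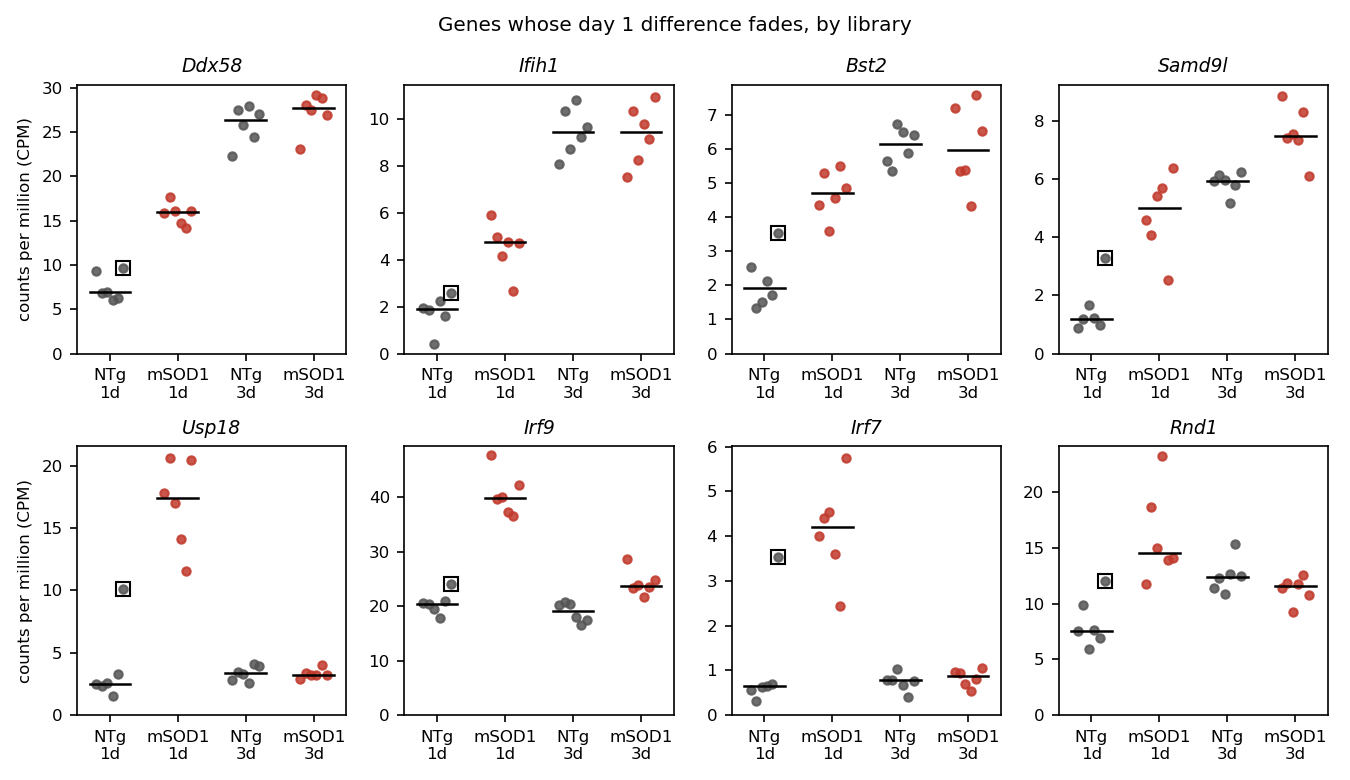
Counts per M reads in each library for 8 fading genes, with NTg libraries in grey, mSOD1 libraries in red, a line at the median of 6, and a square around replicate 6 of NTg on day 1. In the upper row both medians of day 3 lie above the day 1 median of mSOD1 medium, and for Usp18, Irf9 and Irf7 the mSOD1 points come down on day 3.

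The wtSOD1 libraries played no part in the choice of these genes. From day 1 to day 3 in wtSOD1 medium, 7 of the 7 genes at which NTg caught up rose, with a median of 1.43 (log2), beside 31.1% of all genes tested. Of the 4 genes whose mSOD1 level fell, none rose and 1, Irf9, fell, with a median change of -0.32, beside 30.7% of all genes that fell. Against wtSOD1 instead of NTg medium, in a contrast that shares the mSOD1 libraries, the interaction of Usp18 was -2.17, that of Ddx58 -0.64 and that of Irf7 -2.11, all with an adjusted p below 0.05. For Bst2 it was -0.56 (adjusted p = 0.219) and for Samd9l -0.49 (adjusted p = 0.53).

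Leaving out replicate 6 of NTg on day 1 brought 23 more genes past the threshold, among them chemokine, adhesion and interferon genes. The counts became 31 fading or shrinking genes and 16 late ones. Among the 31, the control caught up at 18, the mSOD1 level fell at 8, and both moved at 5. Ccl2 (20296), a chemokine that attracts monocytes, had 2.79 to 4.18 CPM in 5 NTg libraries on day 1 and 23.5 CPM in replicate 6. In mSOD1 medium it had 17.2, 27.1 and 58.6 CPM on that day. On day 3 it had 5.32, 6.78 and 7.17 CPM in NTg and 5.16, 7.05 and 9.41 CPM in mSOD1 medium. With all libraries its interaction was -2.49 ± 0.55 (adjusted p = 0.0787), and without replicate 6 it was -3.04 ± 0.33 (adjusted p = 1.31e-05). Cxcl10 (15945), a chemokine induced by interferon, had 0.52 to 2.88 CPM in those 5 libraries, 12 CPM in replicate 6 and 8.77, 13.9 and 22.1 CPM in mSOD1 medium on day 1. On day 3 its medians were 1.72 CPM in NTg and 1.92 CPM in mSOD1 medium. Its interaction went from -2.55 ± 0.66 (adjusted p = 0.126) to -3.16 ± 0.45 (adjusted p = 0.000414), and it overlaps Art3, which shared its pattern. Nfkbia (18035), the inhibitor of NF-kappaB that the factor itself induces, went from -1.53 ± 0.34 (adjusted p = 0.0725) to -1.67 ± 0.32 (adjusted p = 0.0149).

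The NTg level rose by more than the mSOD1 level at Irgm1 (15944), a GTPase induced by interferon, at Vcam1 (22329) and Icam1 (15894), which encode adhesion proteins, and at Csf1 (12977), the growth factor of microglia. At Vcam1 and Irgm1 the NTg level stayed below the mSOD1 level on day 3. Vcam1 had 77.4, 88.4 and 92.4 CPM in NTg and 94.3, 101 and 111 CPM in mSOD1 medium on that day, and the groups did not overlap (difference 0.24 ± 0.10, adjusted p = 0.172). Irgm1 had 8.89, 11.6 and 13.3 CPM against 12.1, 14.3 and 14.5 CPM, higher in mSOD1 medium in 6 of 6 experiments (0.31 ± 0.18, adjusted p = 0.363). Icam1 had 0.98 to 1.3 CPM in the 5 NTg libraries of day 1 and 4.94 CPM in replicate 6, against 1.82, 3.1 and 4.42 CPM in mSOD1 medium. On day 3 it had 6.45, 7.46 and 9.02 CPM in NTg and 5.71, 7.19 and 8.72 CPM in mSOD1 medium. Both media thus ended above either day 1 group. Csf1 did not need replicate 6 to be left out to come close (adjusted p = 0.0608 with it, 0.0229 without), with medians of 75.8 and 110 CPM on day 1 and 179 and 187 CPM on day 3.

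Lists of interferon and inflammatory genes were counted next. These lists and those below were chosen with earlier results of these data known. The shares of all genes beside them are for scale and are not a test. Of 41 tested interferon effectors, 4 had a called negative interaction with all libraries, 13 without replicate 6 of NTg on day 1 and 18 with the block within days, beside 0.106%, 0.232% and 3.01% of all genes, and none had a positive one in any of these fits. The median interaction was -0.62, beside 0.005 over all genes tested, and 22 of the 41 were higher in mSOD1 medium on day 1 and 4 on day 3, beside 0.379% and 2.14% of all genes. In NTg medium 25 of them rose from day 1 to day 3, beside 30.5% of all genes, and in mSOD1 medium 19 rose and 9 fell, beside 28.6% and 28.2%. Of 18 genes of interferon signalling, 4 had a called negative interaction (Usp18, Irf7, Irf1 and Irf9). Without replicate 6, and also with the block, 5 did. With the block 1 more was positive, beside 6.7% of all genes. Of 12 nucleic acid sensors 2 did (Ddx58 and Ifih1), as without replicate 6, and 3 with the block. Of 11 tested chemokines and adhesion genes none passed with all libraries 4 passed without replicate 6 and 6 with the block. Of 26 genes of the NF-kappaB pathway 1 passed, Nfkb2, and 2 did without replicate 6, Nfkb2 and Nfkbia. With the block 3 were called negative and 1 positive, beside 3.01% and 6.7% of all genes. Of 20 genes of MHC class I presentation none passed. The interaction was negative in 18, beside 48.8% of all genes, and 4 were called negative with the block within days, beside 3.01%.

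In 6 of the 13 late genes the mSOD1 level moved away from the control: Osmr, Ly6a, Csf2rb2, Nek7, Rhoq and Gfra2. In 4 of the 6 the NTg level rose as well, by less, beside 30.5% of all genes. Osmr (18414), the oncostatin M receptor, had the lowest interaction p of all genes. It had 25.7, 27.3 and 28 CPM in NTg and 20.6, 21.9 and 25.2 CPM in mSOD1 medium on day 1, and 27.9, 29.3 and 34.1 CPM against 39.6, 44.1 and 49.8 CPM on day 3. The mSOD1 libraries were thus below all NTg libraries on day 1 and above all of them on day 3. The difference went from -0.28 ± 0.07 (adjusted p = 0.0633) to 0.54 ± 0.06 (adjusted p = 1.28e-05), an interaction of 0.82 ± 0.09 (adjusted p = 1.66e-05), positive in 6 of 6 experiments. With the block within days the day 1 difference also passed (-0.30, adjusted p = 0.00638), so that Osmr counted as reversing there. Against wtSOD1 medium its interaction was 0.76 (adjusted p = 5.97e-06).

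Csf2rb2 (12984), which encodes a receptor subunit for interleukin 3, had 1.19, 1.89 and 3.53 CPM in NTg and 0.73, 1.26 and 1.63 CPM in mSOD1 medium on day 1, and 1.83, 2.06 and 2.88 CPM against 3.7, 4.45 and 5.52 CPM on day 3. Its groups overlapped on day 1 and not on day 3 (interaction 1.51 ± 0.31, adjusted p = 0.0295), and it has a near-identical paralog, Csf2rb, with which reads may have been shared. The interaction of Csf2rb was 0.20 (adjusted p = 0.911). Ly6a (110454), the surface protein Sca-1, had 0.68, 1.75 and 3.06 CPM in NTg and 0.44, 0.61 and 1.6 CPM in mSOD1 medium on day 1, and 9.61, 11.2 and 12.2 CPM against 16.9, 19.2 and 24.2 CPM on day 3. It rose steeply in both media, by 2.76 ± 0.19 in NTg and 4.67 ± 0.21 in mSOD1 medium (interaction 1.91 ± 0.32, adjusted p = 0.00603, positive in 5 of 6 experiments). Gfra2 (14586), a receptor subunit for neurturin of the GDNF family, had medians of 8.48 and 8.21 CPM on day 1 and 9.64 and 14.4 CPM on day 3 in NTg and mSOD1 medium (interaction 0.72 ± 0.15, adjusted p = 0.0418). Nek7 (59125), a kinase of mitosis and of the NLRP3 inflammasome, had 46.4 to 58.4 CPM in NTg and 50.6 to 57.7 CPM in mSOD1 medium on day 1. On day 3 it had 59.2 to 67.8 CPM in NTg and 79.8 to 94.8 CPM in mSOD1 medium (interaction 0.39 ± 0.08, adjusted p = 0.0253). Rhoq (104215), a GTPase also called TC10, had an interaction of 0.37 ± 0.08 (adjusted p = 0.0295) and overlaps Pigf. Its level rose in both media. It had 61.7 to 81.9 CPM in NTg and 60.9 to 69.2 CPM in mSOD1 medium on day 1. On day 3 it had 98 to 106 CPM in NTg and 117 to 129 CPM in mSOD1 medium. Of these 6 genes, 4 rose in wtSOD1 medium as well, with a median change of 0.26 over the 6, beside 31.1% of all genes that rose. In mSOD1 medium the 6 changes were 0.67 to 4.67. Without replicate 6 of NTg on day 1 the interactions were 0.82 for Osmr, 1.82 for Ly6a and 1.38 for Csf2rb2.

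A list of gp130 receptors and cytokine response genes had 20 tested members. The interaction was called positive for 2, Osmr and Csf2rb2, as without replicate 6, and for 7 with the block within days, beside 0.0799% and 6.7% of all genes. Csf2rb2, though on the list, belongs to a receptor that does not use gp130. The median was 0.19, and 7 of the 20 were higher in mSOD1 medium on day 3 and none on day 1, beside 2.14% and 0.379% of all genes. Lifr (16880), the receptor for LIF and a part of the CNTF receptor, had 196, 253 and 302 CPM in NTg and 212, 266 and 286 CPM in mSOD1 medium on day 1, and 279, 313 and 341 CPM against 377, 394 and 459 CPM on day 3. The groups were apart on day 3 only, but the interaction of 0.34 ± 0.12 did not pass without the pairing (adjusted p = 0.212) and passed with the block within days (adjusted p = 0.000441).

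In 5 late genes the control moved and the mSOD1 level moved less. Pcsk2 (18549), a protease that matures neuropeptides, had 60.7, 71.1 and 78.5 CPM in NTg and 69.7, 73.2 and 79.5 CPM in mSOD1 medium on day 1. On day 3 it had 25.7, 30.2 and 34.5 CPM in NTg and 38.3, 43.3 and 49.2 CPM in mSOD1 medium. It fell in both, by 1.24 on the log2 scale in NTg and by 0.76 in mSOD1 medium, and the groups no longer overlapped (interaction 0.48 ± 0.10, adjusted p = 0.0407). Iqsec3 (243621), a regulator of ARF GTPases at inhibitory synapses, fell by 0.97 in NTg and by 0.44 in mSOD1 medium (interaction 0.53 ± 0.11, adjusted p = 0.0323). Chst11 (58250), a chondroitin sulfotransferase, had an interaction of 0.41 ± 0.09 (adjusted p = 0.0358), and Bnc2 (242509), a zinc finger protein, one of 0.78 ± 0.17 (adjusted p = 0.0407), and both fell in both media. Crhbp (12919), the binding protein of corticotropin-releasing hormone, was the exception in direction. It had 5.88, 8.66 and 9.8 CPM in NTg and 8.91, 10.8 and 14.2 CPM in mSOD1 medium on day 1, and 12.3, 15.8 and 16.3 CPM against 8.98, 9.75 and 12.1 CPM on day 3. It rose by 0.84 ± 0.12 in NTg medium and had a change of -0.12 ± 0.12 (adjusted p = 0.41) in mSOD1 medium, which left the mSOD1 level lower (interaction -0.96 ± 0.17, adjusted p = 0.00901, and -0.91 without replicate 6 of NTg on day 1). In wtSOD1 medium 4 of these 5 genes fell and 1, Crhbp, rose, as in NTg medium, beside 30.7% and 31.1% of all genes.

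In Rdh10 and Scn8a the media moved in opposite directions. Rdh10 (98711), which makes the precursor of retinoic acid, had 17.7, 21.2 and 23 CPM in NTg and 14.1, 17.5 and 21.2 CPM in mSOD1 medium on day 1, and 15.6, 17.1 and 20.2 CPM against 21.8, 24.2 and 25.3 CPM on day 3. The groups overlapped on day 1 and not on day 3 (interaction 0.69 ± 0.12, adjusted p = 0.00603). Scn8a (20273), the sodium channel Nav1.6 of the axon initial segment, had medians of 80 and 68.7 CPM on day 1 and 66.4 and 79 CPM on day 3 in NTg and mSOD1 medium, with an interaction of 0.54 ± 0.12 (adjusted p = 0.0444). The genes Pgpep1 (66522), a peptidase, and Mcam (84004), an adhesion molecule of vessels and other tissues, rose in both media, and less in mSOD1 medium. Mcam had medians of 59.8 and 72.5 CPM on day 1 and 200 and 179 CPM on day 3 (interaction -0.41 ± 0.09, adjusted p = 0.0445). Scn8a, Mcam and Oasl2 lay just inside the threshold, and Sult6b1 (adjusted p = 0.0571), Csf1 (0.0608) and Lclat1 (0.0612) just outside it.

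**Figure D3:**
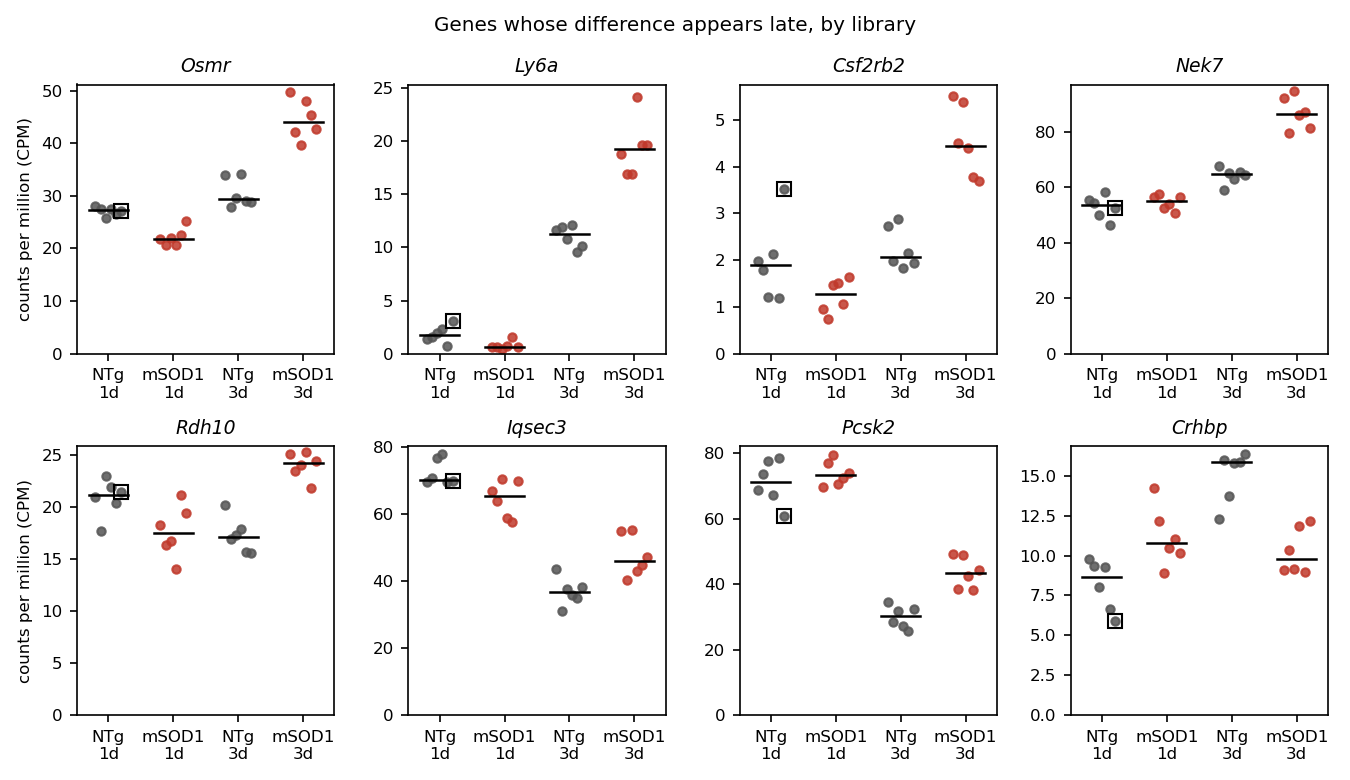
Counts per M reads in each library for 8 genes whose difference appears on day 3, with NTg libraries in grey, mSOD1 libraries in red, a line at the median of 6, and a square around replicate 6 of NTg on day 1. For Osmr, Ly6a, Csf2rb2, Nek7 and Rdh10 the mSOD1 points stand above the NTg points on day 3, for Iqsec3 and Pcsk2 both media come down and mSOD1 less, and for Crhbp the NTg points go up.

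**Figure D4:**
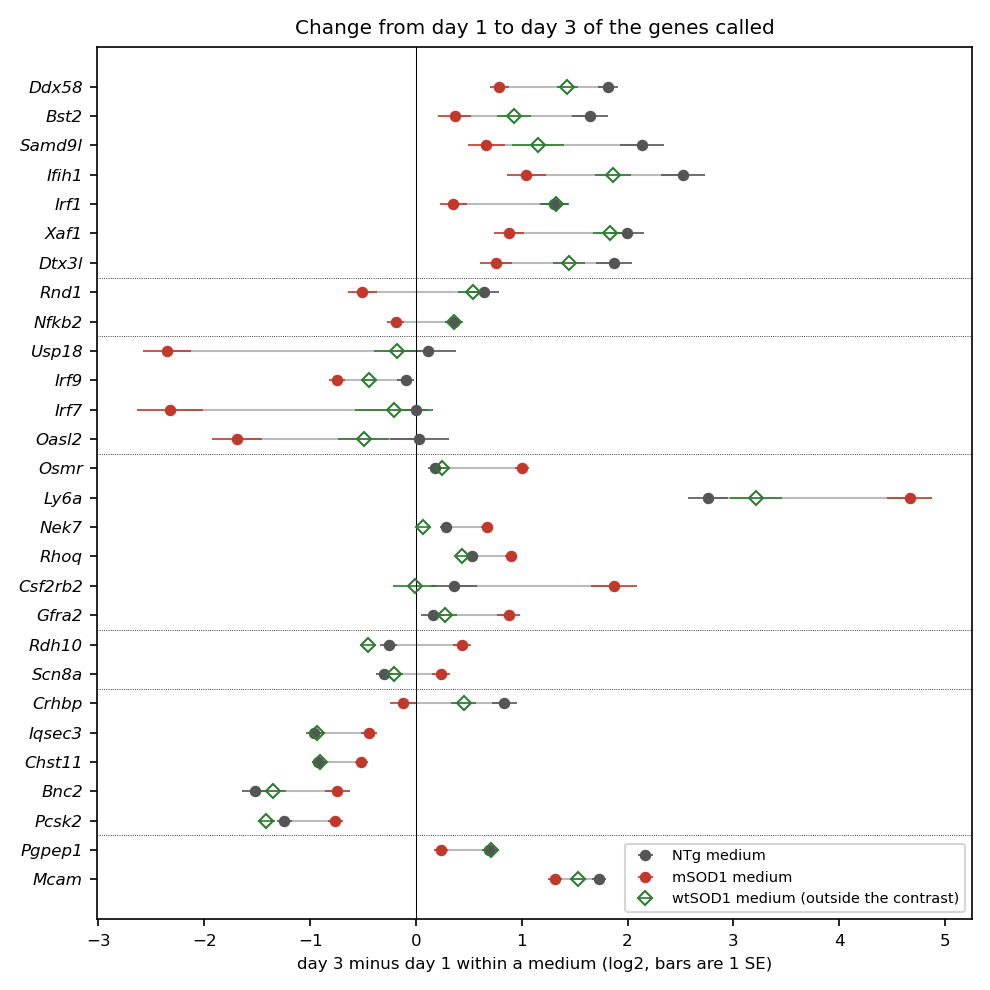
Log2 change from day 1 to day 3 of the 28 genes in NTg (grey), mSOD1 (red) and wtSOD1 medium (green diamonds, outside the contrast), with bars of 1 SE. Dotted lines part the groups in order: control catches up (7), both move (2), mSOD1 falls back (4), mSOD1 moves late (6), both move late (2), control moves away (5) and opposite trends (2).

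Many neuronal genes fell less in mSOD1 than in NTg medium, by small amounts that passed mostly with the block. With the block within days, 1092 of the 1458 called genes appeared late, 838 of them higher and 254 lower in mSOD1 medium on day 3. In 900 of the 1092 the control moved away, and in 538 both media fell. Of 22 tested pan-neuronal genes none passed without the block and 17 had a called positive interaction with it, beside 6.7% of all genes, with a median interaction of 0.28 in both fits. All 22 were positive, beside 51.2% of all genes tested, and 19 fell from day 1 to day 3 in NTg and 17 in mSOD1 medium, beside 31.4% and 28.2% of all genes. Elavl3 (15571), a neuronal RNA-binding protein, fell by 1.07 in NTg and by 0.71 in mSOD1 medium (interaction 0.35 ± 0.11, adjusted p = 0.153, and 0.36 ± 0.05 with the block, adjusted p = 0.000143). Rbfox3 (52897), the nuclear antigen NeuN, had an interaction of 0.50 ± 0.15 (adjusted p = 0.151, and 0.000421 with the block). Of 36 ion channel genes 35 were positive, with 1 called without the block (Scn8a) and 16 with it. Of 25 synaptic vesicle genes 12, of 30 neurotransmitter receptor genes 13 and of 23 motor neuron genes 11 were called positive with the block, and none without it. Without replicate 6 of NTg on day 1 and with no block, the counts of called genes in these 5 lists were the same. Chat (12647), which makes acetylcholine, had 182, 226 and 249 CPM in NTg and 197, 216 and 254 CPM in mSOD1 medium on day 1, and 63.6, 80.6 and 102 CPM against 79, 98.6 and 117 CPM on day 3. It fell in both media, and its day 3 groups overlapped (interaction 0.32 ± 0.14, adjusted p = 0.303, and 0.0026 with the block, positive in 6 of 6 experiments). The selector genes Mnx1 and Isl1, which set motor neuron identity, had interactions of 0.15 (adjusted p = 0.759) and 0.10 (adjusted p = 0.776), and neither passed with the block (0.364 and 0.424).

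For genes of dividing and mesenchymal cells the interactions were mostly negative. Of 30 proliferation genes 28 had a negative interaction, beside 48.8% of all genes, and 4 were called negative with the block, beside 3.01%, with a median of -0.18. Their summed level had medians of 1548 CPM on day 1 and 2717 CPM on day 3 in NTg medium, and of 1518 and 2322 CPM in mSOD1 medium. Of 12 mesenchyme markers 9 were negative and 4 called negative with the block, and the summed level on day 3 was 2152 to 2810 CPM in NTg and 1971 to 2595 CPM in mSOD1 medium. The summed level of the pan-neuronal list on day 3 was 11095 to 15532 CPM in NTg and 13216 to 18202 CPM in mSOD1 medium. The part of the other cell types in the neuronal result was not tested. Of 24 targets of p53, 18 were negative and 8 were called negative with the block, among them Fas, a death receptor (interaction -0.52 ± 0.15, adjusted p = 0.153, and 0.00144 with the block). Sod1 itself had an interaction of -0.12 (adjusted p = 0.655), and the RNA was taken from the neuron cultures, not from the astrocytes that made the medium.

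Whole libraries were compared in the same way. Each library was placed on the line from the mean of the wtSOD1 libraries of day 1 (position 0) to that of day 3 (position 1), over all tested genes, a measure chosen after the data were seen. On day 1 the NTg libraries lay at -0.055, 0.071 and 0.118 (lowest, median and highest) and the mSOD1 libraries at -0.049, 0.076 and 0.108, and the groups overlapped. On day 3 the NTg libraries lay at 0.86, 1.005 and 1.10 and the mSOD1 libraries at 0.74, 0.908 and 1.006. Within an experiment the mSOD1 library of day 3 lay behind the NTg library in 6 of 6 pairs, by 0.105 ± 0.0108 on average (SD, n = 6; two-sided exact sign-flip permutation p = 0.03125, the smallest that 6 pairs allow). On day 1 the mean difference was 0.0132 ± 0.0734 (n = 6; exact permutation p = 0.719). The difference between the days was -0.118 ± 0.0701 (SD, n = 6 experiments, negative in 6; exact permutation p = 0.03125), and -0.136 ± 0.0605 without experiment 6 (n = 5, negative in 5; exact permutation p = 0.0625, the smallest possible). The 3 comparisons are not independent and their p-values are not adjusted. The difference between the days also joins libraries of both days by experiment number, whose meaning the labels do not state. Across days, same-numbered libraries correlated by only 0.0441 on average, over 0.1 in 4 of 24 pairs.

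**Figure D5:**
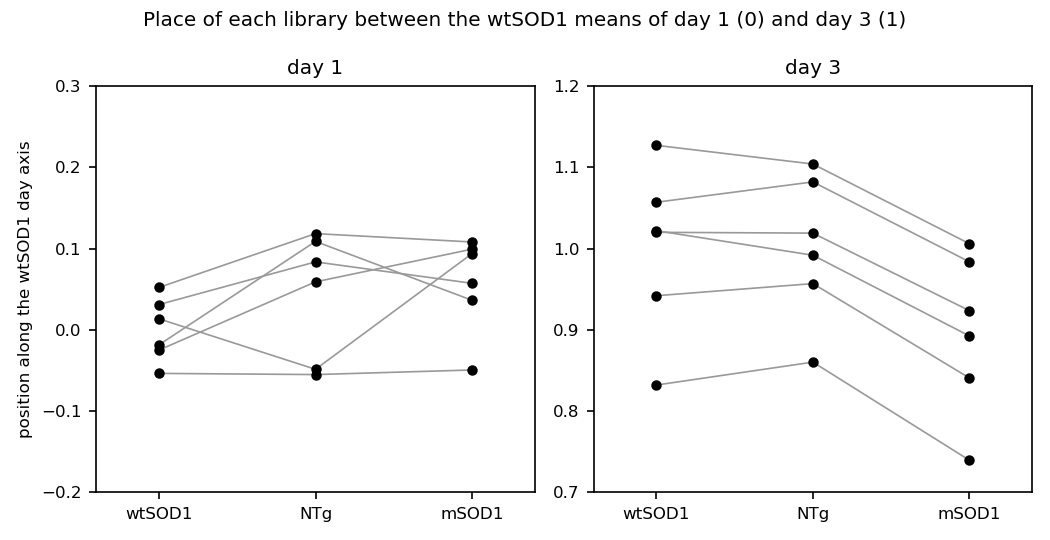
Position of each library on the line from the mean of the wtSOD1 libraries of day 1 (0) to that of day 3 (1), with grey lines joining the libraries of 1 experiment and a different stretch of the axis in each panel. On day 3 every mSOD1 library lies below the NTg library of its experiment, and on day 1 the lines cross.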

How the data were processed

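For each library the authors deposited raw read counts by gene (column Reads) and a variance-stabilised log2 value of the same counts that the authors computed (column VSE, per the file headers). TopHat 1.3.3, DESeq and mm9 appear in the submitters' processing notes, and the counter, annotation, strand setting and handling of shared reads are not given in the labels or headers.

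Counts of the 24 libraries (6 per group) were fitted in R 4.3.3 with edgeR 4.0.16 (TMM scaling, filterByExpr by group, robust quasi-likelihood F-tests, 4 group means, 20 residual degrees of freedom, adjusted p by Benjamini-Hochberg over all 15025 genes, threshold 0.05). A pattern was assigned from the interaction and the 4 simple contrasts of the same fit. In fading genes the control catches up where the NTg change passed towards the mSOD1 level and the mSOD1 change did not pass in the opposite direction, whether or not the media met on day 3. Named genes were up to 10 per pattern by lowest p, the same without replicate 6 of NTg on day 1, up to 4 per list, genes near the threshold and a few fixed markers. The members and lists were chosen with earlier results of these data known. Of 871 list entries 869 matched, 6 by identifier. No pair of libraries was identical.

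Alternatives were DESeq2 1.42.0, limma 3.58.1 (voom with sample weights, and on VSE values), other scaling, other filters, all 36 libraries, blocks and leaving out each library. The labels' experiment number was read as a shared experiment. Deviations from group means of same-numbered NTg and mSOD1 libraries correlated by 0.112 on day 1 on average (over 0.1 in 4 of 6 pairs), by 0.239 on day 3 (in 6 of 6) and by 0.0441 across days, against -0.0222, -0.0477 and -0.00882 for different numbers. Promoter windows came from RefSeq (GRCm38.p6), and overlapping genes were looked up by identifier. The time-zero control was not analysed here, and 1 gene is not reported here.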

Additional observations from a re-analysis of the deposited data

Results flagged for a closer look

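Replicate 6 of NTg on day 1 stood far above the other 5 libraries of its group in many inflammatory genes. A gap to the nearest library above Dixon's 95% critical value was found in 28 of 204 combinations of gene and group, 17 of them in this library. Chance alone gives about 1 in 20 for independent genes chosen without regard to the library. That rate cannot be set against these counts. Some of the genes were chosen because they passed only without this library, and genes that vary together are not independent. Levels in this library (and the nearest of the others) were 23.5 (4.18) CPM for Ccl2, 12 (2.88) for Cxcl10 and 12.7 (2.88) for Art3, which overlaps it. Icam1 had 4.94 (1.3) CPM, Vcam1 52.2 (36) CPM and Nfkbia 19.3 (10.2) CPM. Among interferon genes the values were 10.1 (3.3) CPM for Usp18, 3.53 (0.68) for Irf7, 12.9 (3.6) for Oasl2, 10.6 (3.77) for Irgm1 and 3.77 (0.55) for Rsad2. Samd9l had 3.29 (1.68) CPM, Dtx3l 5.65 (3.22) CPM, Eif2ak2 52.5 (31.4) CPM and Trim25 44.7 (29.5) CPM. The astrocyte gene Gfap had 1.18 (0.093) CPM. Sobp was the one gene that was low in it, at 66.6 (77.8) CPM.

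The other 11 gaps were spread over 6 libraries. In mSOD1 medium on day 1, Ly6a was high in replicate 5 at 1.6 CPM, Ccl2 was high in replicate 4 at 58.6 CPM and Gfap was high in replicate 2 at 0.24 CPM. Mcam (63.1 CPM) and 1300014I06Rik (12.8 CPM) were low in replicate 3, and Trim25 (38.9 CPM) and Irgm1 (6.47 CPM) were low in replicate 5. In NTg medium on day 3, Dtx3l (7.68 CPM) and Eif2ak2 (38.2 CPM) were low in replicate 1, and Pgpep1 (46.1 CPM) and Gfap (3.49 CPM) were high in replicate 2.

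The effect of mSOD1 medium differed between the days, by the test of the interaction itself, for 28 genes. The log2 interactions were -1.03 for Ddx58, -1.48 for Ifih1, -1.28 for Bst2, -1.48 for Samd9l, -0.96 for Irf1, -1.12 for Xaf1, -1.11 for Dtx3l, -2.47 for Usp18, -0.65 for Irf9, -2.32 for Irf7, -1.73 for Oasl2, -1.14 for Rnd1 and -0.55 for Nfkb2. They were 0.82 for Osmr, 1.91 for Ly6a, 1.51 for Csf2rb2, 0.39 for Nek7, 0.37 for Rhoq, 0.72 for Gfra2, 0.69 for Rdh10, 0.54 for Scn8a, 0.53 for Iqsec3, 0.41 for Chst11, 0.78 for Bnc2 and 0.48 for Pcsk2. For Crhbp, Pgpep1 and Mcam they were -0.96, -0.45 and -0.41.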

How the results depend on the processing

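No gene that was checked changed direction under any alternative. The check covered the genes called with or without replicate 6 of NTg on day 1, the fixed markers and the genes near the threshold. Genes named only as members of a list were not checked. The 28 genes were all called with DESeq2, with voom weights and with every block, 26 were called with all 36 libraries and 19 on VSE values, where Bnc2, Bst2, Dtx3l, Ifih1, Mcam, Oasl2, Pcsk2, Samd9l and Xaf1 were lost, and the cause of these losses was not tested. With the experiment as a replicate block, 364 genes were called (274 positive, 90 negative): 30 faded or shrank (control catching up 18, mSOD1 falling back 11, both moving 1), 287 appeared late (mSOD1 moving 43, control moving away 230) and 1 reversed. With the replicate block within each day, 1458 were called (1006 and 452), with 78 fading (54 and 21), 1092 late (149 and 900) and 10 reversing. That block without replicate 6 of NTg on day 1 gave 1873 (1228 and 645), with 138 fading (100, 29 and 9), 1296 late (183 and 1064) and 38 reversing. Limma-voom with the block within days, added after the data were seen, gave 1552 (1066 and 486), with 75 fading (52 and 20), 1189 late (166 and 974) and 13 reversing. DESeq2 called 112 (72 and 40), with 24 fading (15 and 7), 66 late (17 and 44) and 2 reversing. Voom with weights called 48, 31 of them negative, with 29 fading (16 and 10). On VSE values 21 passed, 10 of them negative, with 8 fading (3 with a control catching up and 1 with both moving), 3 late with a control moving away and 1 reversing. With all 36 libraries 8 fell back and 1 moved in both, and RLE scaling, no filter and a strict filter also left 1 moving in both.

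Leaving out each of the 24 libraries in turn gave 11 (without NTg replicate 4 of day 3) to 89 genes (without NTg replicate 1 of day 3), 3 to 60 positive and 8 to 35 negative. The count fell by more than 1.5 times in 12 of the 24 fits and rose by more in 2. Fading or shrinking genes numbered 7 to 31 (control catching up 4 to 18, mSOD1 falling back 2 to 8, both 1 to 5), late genes 4 to 65 (mSOD1 moving 2 to 10, control moving away 1 to 49) and reversing genes 0 to 1. In all 24 fits 11 genes were called: Bst2, Crhbp, Ddx58, Ifih1, Irf9, Ly6a, Osmr, Rdh10, Rnd1, Samd9l and Usp18. Oasl2 was called in 5, Bnc2, Irf7, Mcam, Pcsk2 and Scn8a in 6, Chst11 and Gfra2 in 7, Rhoq in 9, Dtx3l and Nfkb2 in 11, Csf2rb2, Iqsec3 and Pgpep1 in 12, Nek7 in 17, Xaf1 in 21 and Irf1 in 22. With 6 libraries a group, the smallest of 4.39 M reads, genes of a few CPM carry the widest errors.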
